A study of Mus musculus with 8 samples.

Results

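The genes described here make, sense or remove extracellular adenosine. The list named 5 genes, Nt5e, Entpd1, Adora2a, Ada and Adk, and their members were all probe sets annotated to 1 of these symbols. That gave 13 of 45101 probe sets, for 4 of 18193 genes: 3 probe sets for Nt5e, 3 for Entpd1, 1 for Ada and 6 for Adk. Adora2a is not analysed here. RNA was measured on single-colour Affymetrix arrays, which report each gene through 1 or more probe sets. Sorted naive CD4 T cells (CD25 negative, CD44 low, CD62L high) from spleens of mice labelled C57BL/6J were kept in culture for 24 h, with TGF-b (2 ng/ml) or without it.

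The 4 genotypes were a T cell-specific conditional Smad2 knockout (Smad2del/del, Smad2KO), a Smad3 knockout (Smad3-/-, Smad3KO), Smad2del/del cells with 1 Smad3 allele (Smad3+/-, Smad2KO_Smad3het), and wild type (WT). All cultures, with TGF-b or not, were stimulated through CD3e and CD28 (1 ug/ml of each antibody) with IL-2 (10 ng/ml) while IFN-g and IL-4 were blocked (10 ug/ml of each antibody). The labels do not name the Cre line behind the T cell deletion, and Smad2KO_Smad3het stood in for cells without both Smads, whose naive T cells were hard to collect. There were 8 arrays, 1 for each genotype with and without TGF-b, and this number limits precision. Nothing in the labels says that cultures were from separate animals, and no group had a replicate culture. In the tests below, TGF-b responses were set against their spread between genotypes. Level differences between genotypes were set against their spread between treatments. The p-values therefore do not measure how replicate cultures or animals vary. In these bulk samples, fewer cells of a type and less RNA per cell cannot be told apart.

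Activated and dying cells release ATP. On the cell surface CD39, the product of Entpd1, cuts ATP and ADP to AMP, and CD73, the product of Nt5e, cuts AMP to adenosine. Adenosine acts on T cells mainly through the A2A receptor, the product of Adora2a, which raises cAMP and dampens T cell activation. Equilibrative transporters carry adenosine into cells, where adenosine deaminase (Ada) turns it into inosine and adenosine kinase (Adk) turns it back into AMP. Mouse regulatory T cells carry both CD39 and CD73, and TGF-b is known to raise CD73 on T cells.

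The promoters of the 3 members with a bright probe set are shown because Nt5e responded to TGF-b, whose signal Smad proteins carry to DNA, and Ada and Adk did not pass the same test. The sequences are from RefSeq (GRCm38.p6) and run from 250 bases before to 50 bases after a gene start, 5′ to 3′ on the gene's strand. Capitals mark CAGAC, a motif that Smad3 and Smad4 bind, or its reverse complement GTCTG. All 4 genes with probe sets had at least 1 promoter in the table. In this assembly Nt5e spans 88327609 to 88372089 of chromosome 9, Ada 163726571 to 163750239 of chromosome 2, Adk 21052574 to 21448569 of chromosome 14 and Entpd1 40612366 to 40741602 of chromosome 19.
Nt5e, chr9:88327359-88327658, plus strand: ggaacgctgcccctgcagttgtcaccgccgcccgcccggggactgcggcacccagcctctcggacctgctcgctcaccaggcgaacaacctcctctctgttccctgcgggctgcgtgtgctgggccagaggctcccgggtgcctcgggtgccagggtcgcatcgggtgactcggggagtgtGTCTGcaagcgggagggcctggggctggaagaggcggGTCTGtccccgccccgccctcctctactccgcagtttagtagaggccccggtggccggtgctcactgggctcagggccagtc
Ada, chr2:163750190-163750489, minus strand: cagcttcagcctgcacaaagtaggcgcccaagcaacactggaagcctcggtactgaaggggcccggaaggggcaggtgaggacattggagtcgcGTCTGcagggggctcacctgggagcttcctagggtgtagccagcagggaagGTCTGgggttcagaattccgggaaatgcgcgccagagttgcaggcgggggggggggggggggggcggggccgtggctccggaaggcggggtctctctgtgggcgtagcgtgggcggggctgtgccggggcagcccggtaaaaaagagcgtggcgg
Adk, chr14:21052324-21052623, plus strand: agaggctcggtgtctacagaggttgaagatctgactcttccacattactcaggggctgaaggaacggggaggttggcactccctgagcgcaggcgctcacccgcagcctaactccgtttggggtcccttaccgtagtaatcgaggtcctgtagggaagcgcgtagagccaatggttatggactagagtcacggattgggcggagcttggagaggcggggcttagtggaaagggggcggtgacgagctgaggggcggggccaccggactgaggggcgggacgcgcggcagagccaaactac

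Searched on both strands, CAGAC occurred 2 times in the Nt5e window, 2 times in the Ada window, 1 time in each of the 2 Entpd1 windows and 0 times in each of the 2 Adk windows. The motif was present in 49.6% of the 32851 RefSeq windows of this length, so its presence is common. GGGCGG, the GC box bound by Sp1, occurred 4 times in the Nt5e window, 2 times in the Ada window, 4 times in each Adk window and 0 times in each Entpd1 window, and was present in 35.7% of all windows. No CAGAC match overlapped a GGGCGG match in the Nt5e window. The cAMP response element TGACGTCA, present in 1.79% of all windows, occurred 0 times in any of them. A match is a description of letters in these windows only.

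The 2 Smad2KO_Smad3het arrays stood apart. Rank correlations over probe sets were 0.907 to 0.928 among the other 6 arrays and 0.66 to 0.693 between those and these 2. After scaling to a common trimmed mean, median signals were 90.9 and 88.0 on the Smad2KO_Smad3het arrays with and without TGF-b and 26.2 to 30.4 on the other 6. All 7 CD4 T cell markers named here (Cd3e, Cd3d, Cd3g, Cd4, Cd28, Cd5, Thy1) were bright on all 8 arrays. Sums over 4 B cell and 6 myeloid markers were 934 and 2123 with TGF-b and 485 and 2545 without on the Smad2KO_Smad3het arrays, against 40.2 to 66.4 and 90.6 to 182 on the other 6. Pax5 gave most of the B cell sums, at 681 with and 361 without TGF-b. Sums over 2 CD8 T cell markers were 1347 with and 1049 without TGF-b on these 2 arrays, against 58.1 to 137 on the other 6. Those over 3 NK cell markers were 580 and 138, against 4.36 to 25.7. Cd8a gave most of the CD8 sums, at 1336 with and 915 without TGF-b, while Cd8b1 read 11.3 and 134.5. Not every marker was raised. The B cell marker Ms4a1 read 12.2 and 17.25, against 7.07 to 20.5 on the other 6, and the myeloid marker Itgam 13.4 and 2.80, against 1.73 to 12.8. Smad2 read 890.5 and 983 in Smad2KO cells with and without TGF-b, against 878 and 909.8 in WT, and Smad3 read 622 and 523 in Smad3KO, against 467 and 127 in WT. Whether these probes lie inside the deleted parts is unknown here, so they do not check the labels. Tests therefore used the 6 arrays of Smad2KO, Smad3KO and WT, and Smad2KO_Smad3het values are given beside them. Signals are scaled intensities. A floor was set at 27.7, the median over the 6 arrays, and a probe set was tested if it reached 55.4, 2 times the floor, on any of them. Of the 13 member probe sets 7 were tested: 2 for Nt5e, 1 for Ada and 4 for Adk.

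Nt5e, the ecto-enzyme that makes adenosine from AMP, was far higher with TGF-b in all 3 of these genotypes. Its brightest probe set, 1428547_at, read 694, 705 and 1835 with TGF-b in Smad2KO, Smad3KO and WT, against 27.9, 40.7 and 87.4 without. Without TGF-b the Smad2KO signal lay just above the floor. Expressed as a position among all probe sets of its array, this probe set stood at the 89.3rd, 89.4th and 95.8th percentile with TGF-b in Smad2KO, Smad3KO and WT, against the 50.6th, 56.8th and 65.6th without. The ratios with over without TGF-b were 24.9-fold in Smad2KO, 17.3-fold in Smad3KO and 21.0-fold in WT, each from 1 pair of arrays. With genotype as a block, the mean log2 response in limma was 4.38 (SE 0.139, 95% interval 4.07 to 4.69, adjusted p = 1.07e-07), the smallest p of all probe sets. The size of this p depended on the settings, although the response passed under each of them. Its adjusted p was 0.0214 when limma's trend and robust options were off, and 0.0177 when genotype was not blocked.

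A second probe set, 1422974_at, also read higher with TGF-b, but it reached 2 times the floor only on the arrays with TGF-b, so it entered the test only through the group where it was high and is not separate support. It read 245, 268 and 519.8 with TGF-b in Smad2KO, Smad3KO and WT, against 13.3, 21.0 and 32.8 without, where the signals of both knockouts lay under the floor. Its fitted mean log2 response, with both knockouts' signals without TGF-b set to the floor, was 3.47 (SE 0.204, 95% interval 3.02 to 3.92, adjusted p = 3.23e-06). The third, 1459023_at, was under the floor on all 6 arrays, at 22.9, 7.81 and 16.1 with TGF-b and 6.05, 9.48 and 1.89 without, and was not tested. Of the 7 tested member probe sets 2 rose with TGF-b and 0 fell, a count that the filter favoured because it includes 1422974_at. Over all 20147 tested probe sets 5.93% rose and 3.49% fell. The size of this imbalance depends on centring, with more rises than falls in each case: 1194 probe sets rose and 704 fell with scaled arrays, and 1048 and 991 with arrays centred on their medians. At 2-fold within a genotype, the same 2 Nt5e probe sets were higher in Smad2KO, Smad3KO and WT, where 3.64%, 2.1% and 4.64% of bright probe sets were. Probe set 1422974_at in all 3, and 1428547_at in both knockouts, reached 2 times the floor only with TGF-b. No member probe set was 2-fold lower, where 1.54%, 0.785% and 3.02% were.

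In Smad2KO_Smad3het cells the 3 Nt5e probe sets disagreed. The brightest of the other genotypes, 1428547_at, read 295 with TGF-b and 48.1 without, 6.15-fold apart, and the signal without TGF-b lay at the 34.5th percentile of its array. Probe set 1422974_at read 555 with and 506 without TGF-b, a log2 ratio of 0.13, and its level without TGF-b was higher than on any of the other 3 arrays without it. Probe set 1459023_at read 95.9 with and 21.4 without. On this pair of arrays 14.4% of bright probe sets were up by 2-fold or more in the TGF-b culture and 13% were down. With all 8 arrays the mean response of 1428547_at was 3.94 (SE 0.32, adjusted p = 0.00397) and that of 1422974_at 2.63 (SE 0.569, adjusted p = 0.0742), which did not pass, where 1.3% of all probe sets rose and 0.546% fell.

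**Figure D1:**
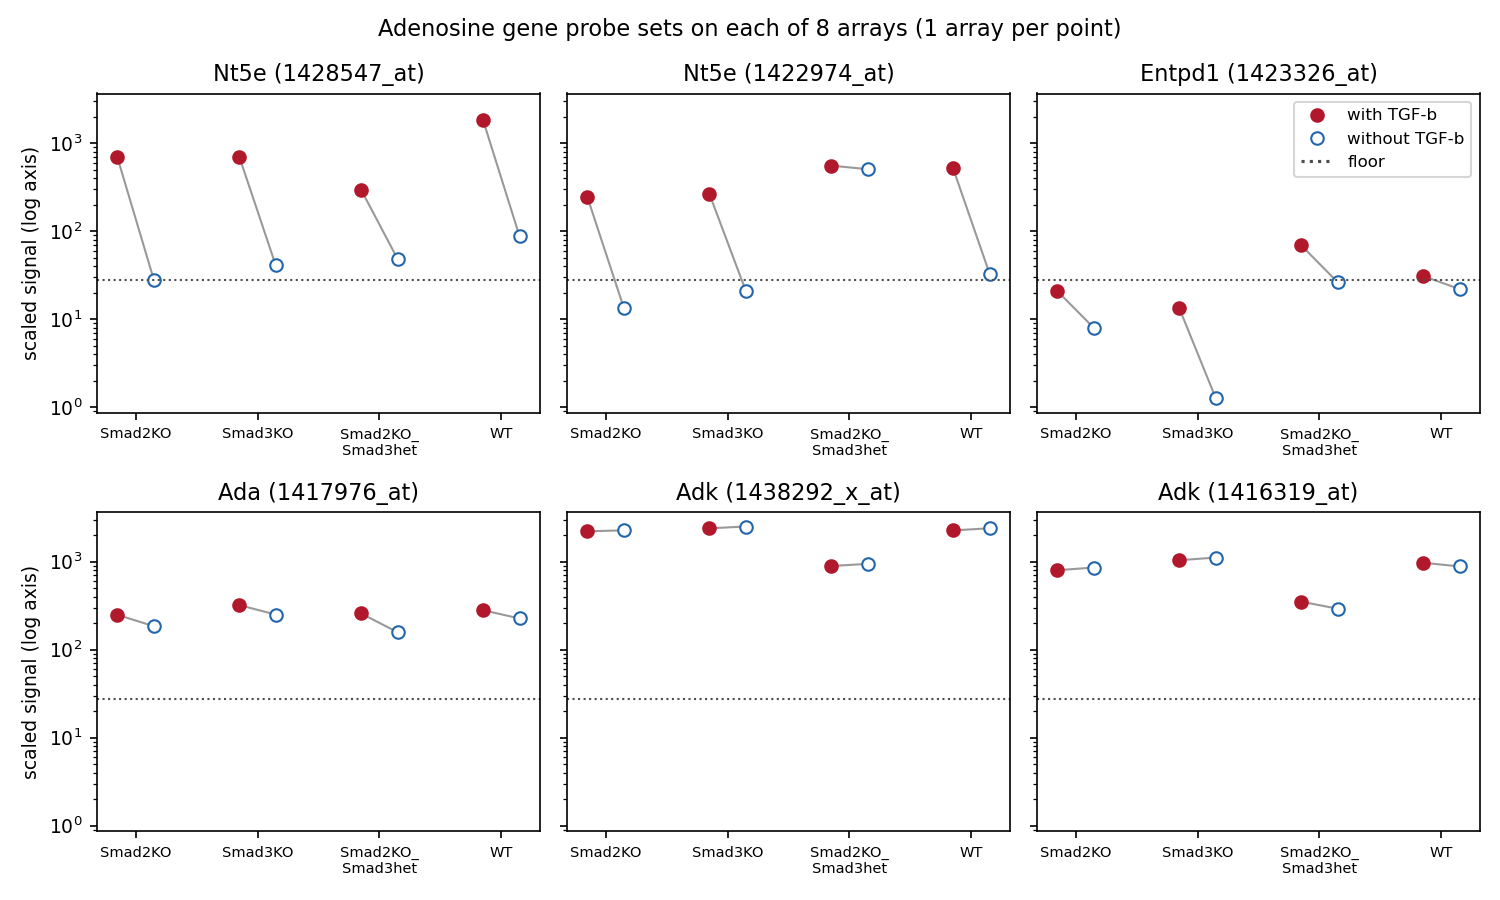
Scaled signal (log axis) of the 2 brightest Nt5e and Adk probe sets and the brightest of Entpd1 and Ada, with (filled red) and without (open blue) TGF-b in each genotype; each point is 1 array and the dotted line is the floor of 27.7. Nt5e is higher with TGF-b in Smad2KO, Smad3KO and WT, Entpd1 lies near or under the floor there, and Ada and Adk lie well above it in every culture.

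Nt5e also differed in level between the cultures of different genotypes. With 1 culture per genotype and treatment, an effect of genotype cannot be told apart from a difference between animals or cell preparations. With TGF-b, 1428547_at read 694 in Smad2KO and 705 in Smad3KO, against 1835 in WT, 2.65-fold and 2.60-fold lower in the knockouts. Without TGF-b it read 27.9 in Smad2KO and 40.7 in Smad3KO, against 87.4 in WT, 3.13-fold and 2.15-fold lower. Over both treatments, with treatment as a block, limma put the log2 level in Smad2KO minus that in WT at -1.53 (SE 0.171, adjusted p = 0.00179) and that in Smad3KO minus WT at -1.24 (SE 0.171, adjusted p = 0.0114). This was 1 of 7 tested member probe sets in each comparison, where 0.412% of all probe sets were lower in Smad2KO and 0.213% in Smad3KO. No member was called higher, where 0.546% and 0.159% of probe sets were. Both comparisons use the same 2 WT arrays and are not independent.

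Probe set 1422974_at read 245 in Smad2KO and 268 in Smad3KO with TGF-b, against 519.8 in WT. Its level differences over both treatments, -0.67 in Smad2KO (95% interval -1.22 to -0.12, adjusted p = 0.374) and -0.60 in Smad3KO (interval -1.15 to -0.051, adjusted p = 0.438), did not pass, and both are limited by the floor on the arrays without TGF-b. The calls for 1428547_at were lost with no filter on dim probe sets (adjusted p = 0.108 in Smad2KO and 0.309 in Smad3KO), without limma's trend and robust settings (0.144 and 0.295), and without the treatment block, which puts the TGF-b response into the spread.

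Whether the Nt5e response itself differed between genotypes could be tested only weakly, with 3 responses and 1 residual degree of freedom. The log2 response of 1428547_at was 4.64 in Smad2KO, 4.11 in Smad3KO and 4.39 in WT. The Smad3KO response minus the mean of the other 2 was -0.40 (95% interval -1.97 to 1.18, limma adjusted p = 0.952). The Smad2KO response minus the mean of the other 2 was 0.38 (interval -5.49 to 6.26, adjusted p = 0.9998). These intervals do not show that the responses were alike. Across all probe sets limma called 0 of 20140 and 0 of 20136 in these 2 comparisons, with 901 and 863 at an unadjusted p under 0.05.

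**Figure D2:**
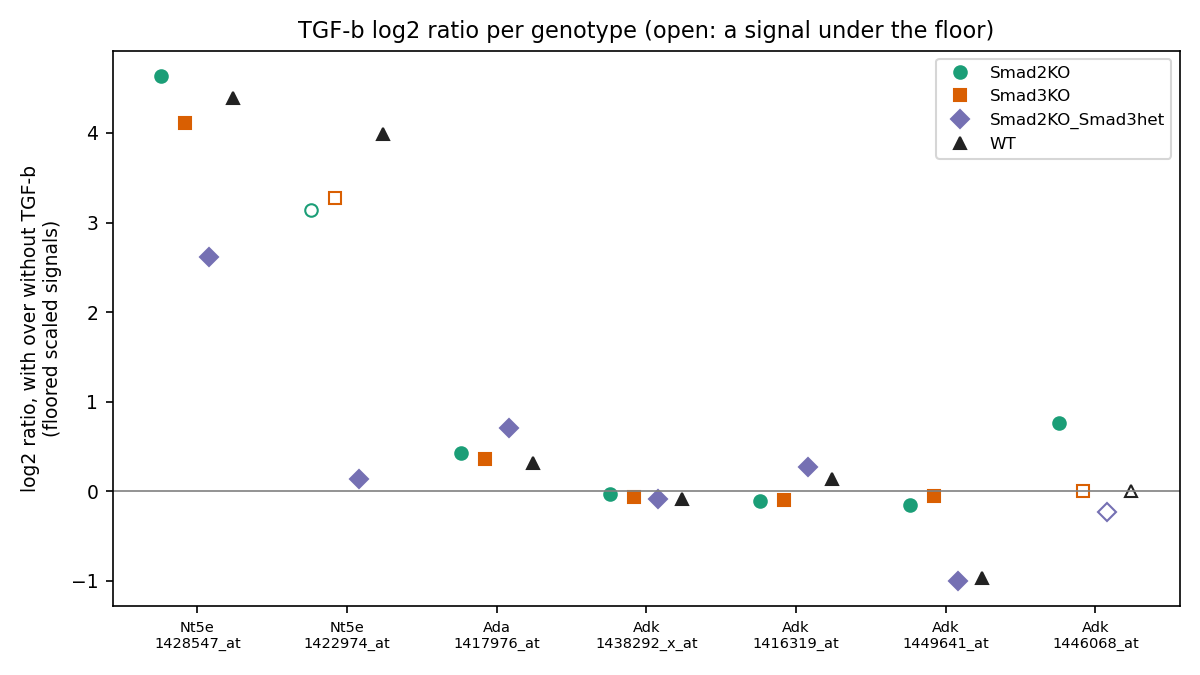
Log2 ratio of floored scaled signals with over without TGF-b for the 7 tested member probe sets, 1 symbol per genotype and 1 pair of arrays per symbol; open symbols have at least 1 signal under the floor. The brightest Nt5e probe set stands at 4.64, 4.11 and 4.39 in Smad2KO, Smad3KO and WT and at 2.62 in Smad2KO_Smad3het, while the brightest Adk probe set lies between -0.08 and -0.03 in all 4.

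The summed signal of 5 regulatory T cell markers (Foxp3, Ikzf2, Ikzf4, Il2ra, Ctla4) was 4795, 3574 and 5043 with TGF-b in Smad2KO, Smad3KO and WT, against 2569, 2629 and 2493 without. Il2ra and Ctla4 gave most of each sum, and all cultures were activated, so it is not a measure of regulatory T cells. Foxp3, which defines the lineage, read 245, 85.35 and 342 with TGF-b and 21.05, 17.6 and 2.36 without, where all 3 signals lay under the floor. Ikzf4 and Il2ra were also higher with TGF-b in each of these genotypes. Il2ra read 2195, 1933 and 2520 with TGF-b in Smad2KO, Smad3KO and WT, against 1192, 1071 and 1171 without. Ctla4 read 1921, 1170 and 1563 with TGF-b and 1168, 1389 and 1164 without, lower with TGF-b in Smad3KO, and Ikzf2 read 61.8, 71.7 and 97.1 with TGF-b and 57.5, 48.0 and 61.4 without. The summed signal of 3 genes listed as memory T cell markers (Cd44, Cxcr3, Il7r) was 1889, 2470 and 2058 with TGF-b in Smad2KO, Smad3KO and WT, against 1760, 1522 and 1588 without. Cd44 gave most of each sum, and all cultures were activated, so the sum is not a measure of memory cells. Of these Il7r and Cxcr3 were higher with TGF-b in each genotype, Cxcr3 under 2 times the floor on both Smad3KO arrays, while Cd44 read 1554 with and 1591 without in Smad2KO. B cell markers, whose cells can carry CD73, stayed under 2 times the floor for all 4 genes on all 6 arrays. Some markers of other cells passed it: the CD8 T cell markers Cd8a and Cd8b1 read 11.3 to 80.1 and 32.7 to 79.15. The myeloid marker Csf1r read 46.05 to 104 on the 6 arrays. The part of regulatory T cells, memory T cells or other cell types in the Nt5e result was not tested.

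The 5 genes whose profile over the 6 arrays was most like that of Nt5e, by the root mean square difference of log2 signals centred on each gene's mean, were Aqp3 (0.499), Kctd14 (0.671), Ccr8 (0.785), Socs2 (0.82) and Adam19 (0.844), out of 9452 genes. Without TGF-b, all signals of Aqp3, Kctd14 and Ccr8 lay under 55.4, so these were tested only through arrays where they were high. Those of Ccr8, 18.6, 27.4 and 22 in Smad2KO, Smad3KO and WT, lay under the floor and were set to it. For these genes the likeness to Nt5e is not separate support. Aqp3, a water and glycerol channel, read 959, 365 and 1251 with TGF-b in Smad2KO, Smad3KO and WT, against 32.8, 34.1 and 55.2 without. Its signal with TGF-b was thus lowest in Smad3KO, where that of Nt5e stood beside Smad2KO. Socs2, an inhibitor of cytokine receptor signalling, read 2637, 722 and 2830 with TGF-b and 130.2, 96.9 and 104 without.

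Entpd1, whose product CD39 supplies AMP to CD73, was dim. It had 3 probe sets, of which 1423326_at and 1450939_at share an accession. Of their 18 signals on the 6 arrays 17 lay under the floor, and the range was 0.31 to 30.9. The brightest probe set, 1423326_at, read 20.8, 13.3 and 30.9 with TGF-b in Smad2KO, Smad3KO and WT, against 7.93, 1.26 and 22.0 without. The values with TGF-b were higher within each genotype, but 5 of the 6 were under the floor, values there have no order, and Entpd1 was not tested. In Smad2KO_Smad3het cells this probe set read 69.2 with and 26.2 without TGF-b, 1453586_at read 95.9 and 62.6, and 1450939_at read 3.28 and 2.30, where the median signals of those arrays were 90.9 and 88.0.

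Ada, which removes adenosine by turning it into inosine, was bright on every array. Its 1 probe set, 1417976_at, read 249, 321, 258 and 281 with TGF-b in Smad2KO, Smad3KO, Smad2KO_Smad3het and WT, against 185, 250.1, 157 and 226 without. Each genotype had the higher signal with TGF-b, by 1.35-fold, 1.28-fold, 1.64-fold and 1.24-fold, but the levels of the 2 groups overlapped. The mean log2 response on the 6 arrays was 0.37 (SE 0.117, 95% interval 0.11 to 0.625, limma adjusted p = 0.0781) and did not pass. In WT the direction rests on scaling, since the deposited intensities gave a log2 ratio of -0.16 there. Level differences from WT were -0.23 in Smad2KO (interval -0.55 to 0.082, adjusted p = 0.694) and 0.17 in Smad3KO (interval -0.15 to 0.485, adjusted p = 0.741).

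Adk, which returns adenosine to AMP inside the cell, was bright and varied little between treatments. Its brightest probe set, 1438292_x_at, of a type whose probes can also match other transcripts, read 2215, 2394 and 2265 with TGF-b in Smad2KO, Smad3KO and WT, against 2269, 2509 and 2398 without. The mean log2 response was -0.06 (SE 0.0682, 95% interval -0.21 to 0.089, adjusted p = 0.621). Probe set 1416319_at read 799, 1039 and 973 with TGF-b, against 858, 1114 and 882 without, with a mean response of -0.02 (SE 0.0864, interval -0.21 to 0.17, adjusted p = 0.908). Both intervals lie well inside a 2-fold change. Without scaling, the log2 ratios in Smad2KO, Smad3KO and WT were -0.28, 0.06 and -0.55 for 1438292_x_at and -0.35, 0.03 and -0.33 for 1416319_at. In Smad2KO_Smad3het these 2 read 892 and 351 with TGF-b and 945 and 292 without, lower than on the other 6 arrays. Such a lower signal was not particular to Adk. Hprt read 2306 with and 2304 without there, against 4034 to 4707, and Ahcy 2037 and 2440, against 3767 to 4875. Cd3e was higher there, at 2539 and 2462, against 1597 to 2315. An effect of this genotype on Adk was not tested.

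The other 4 Adk probe sets, 1 of which, 1421767_at, shares its source transcript with 1416319_at, were dim, with 11 of 24 signals on the 6 arrays under the floor and a range of 3.25 to 84.4. Probe set 1449641_at, listed with no accession in the annotation used, read 36.9, 69.3 and 43.2 with TGF-b in Smad2KO, Smad3KO and WT, against 41.1, 71.9 and 84.4 without, 1.95-fold lower with TGF-b in WT. In Smad2KO_Smad3het it read 42.0 with and 84.0 without, 2.00-fold lower. Its mean response of -0.39 (SE 0.264, adjusted p = 0.399) did not pass. Probe set 1446068_at was tested only because it reached 56.2 in Smad2KO cells with TGF-b, and its mean response of 0.25 (adjusted p = 0.696) did not pass. The remaining 2, 1421767_at at 27.3 to 45.9 and 1446675_at at 3.25 to 16.9 on the 6 arrays, were not tested. No Ada or Adk probe set passed a comparison of either knockout with WT.

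**Figure D3:**
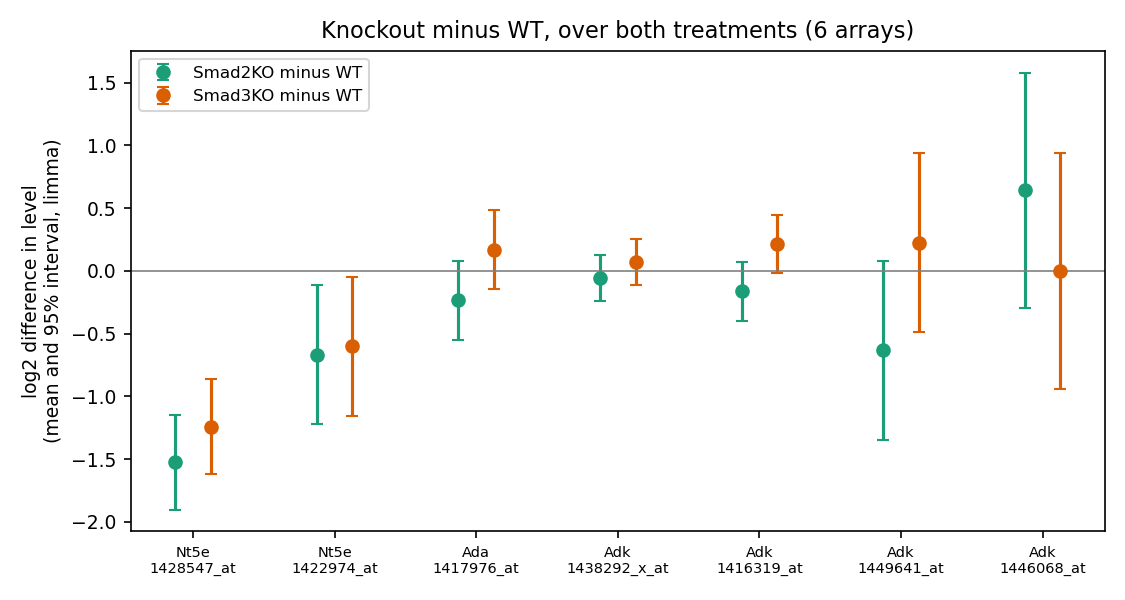
Level of each tested member probe set in Smad2KO and in Smad3KO minus that in WT, over both treatments, as the log2 difference with its 95% interval from limma. The intervals of both Nt5e probe sets lie below 0, and those of Ada and Adk include 0; only 1428547_at passes after adjustment.

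Other genes of purine handling were read from lists of 75 genes, of which 63 had a probe set and 39 were bright enough to test, each through its probe set with the highest mean. With TGF-b 6 of the 39 rose and 2 fell on the 6 arrays, 15.4% and 5.13%, where 6.48% and 4.58% of all 9453 tested genes did, and their median log2 response was 0.06, against -0.02 over all genes. With all 8 arrays 1 rose and 1 fell, without limma's trend and robust settings 1 rose and 0 fell, with no filter 3 rose and 0 fell, and leaving out 1 genotype pair gave 2 to 7 rises and 1 to 3 falls. No list gene passed a comparison of Smad2KO or Smad3KO with WT, where 0.444% of genes were higher and 0.476% lower in Smad2KO, and 0.138% higher and 0.18% lower in Smad3KO.

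Among enzymes of extracellular nucleotide breakdown, 1 of 4 tested genes rose and 0 fell. This was Acpp, an acid phosphatase that can also act as an ecto-5′-nucleotidase, at 94.96, 71.6 and 113 with TGF-b in Smad2KO, Smad3KO and WT, against 40.4, 32.2 and 53.8 without. All 3 signals without TGF-b lay under 55.4, so Acpp was tested only through the arrays where it was high. Its mean log2 response was 1.15 (SE 0.219, adjusted p = 0.00765), and without the Smad2KO pair its adjusted p was 0.0842. Entpd5 was at 0.30 (adjusted p = 0.139), and the ectonucleotidase genes Entpd2, Entpd3 and Entpd8 were too dim to test. The receptor gene Adora3 was too dim as well, at 3.18 to 26.7 on the 6 arrays.

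Of 9 tested genes of adenosine transport and removal, 1 rose and 0 fell. Slc29a1, the main equilibrative nucleoside transporter ENT1, read 2204, 1640 and 2210 with TGF-b in Smad2KO, Smad3KO and WT, against 998, 1172 and 1096 without. It rose by 0.88 on the log2 scale (SE 0.119, adjusted p = 0.00226), but read 1088 with and 1235 without TGF-b in Smad2KO_Smad3het, and with all 8 arrays its adjusted p was 0.199. Pnp, which follows Ada by splitting inosine, was at 0.06 (adjusted p = 0.701), Ahcy, which releases adenosine from S-adenosylhomocysteine, at 0.00414 (adjusted p = 0.979), and Dpp4, which anchors ADA on human T cells, at -0.23 (adjusted p = 0.537).

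Of 8 tested genes of cytosolic AMP and IMP handling, 1 rose and 1 fell. Ak4, a mitochondrial adenylate kinase, read 136, 142 and 82.6 with TGF-b in Smad2KO, Smad3KO and WT, against 228, 252 and 235 without, and fell by 1.03 (SE 0.171, adjusted p = 0.00372). Nt5c2, a cytosolic nucleotidase that prefers IMP and GMP, rose by 0.42 (SE 0.107, adjusted p = 0.0319), and this call was lost without the Smad2KO pair and without the WT pair. Of the ATP release channel gene Panx1 and 13 genes with P2 receptor symbols, 3 were bright enough to test and 0 rose or fell: Panx1 at -0.16 (adjusted p = 0.317), P2rx4 at -0.30 (adjusted p = 0.296) and P2ry10 at 0.38 (adjusted p = 0.0546). P2ry10 is listed by its symbol only, and its ligand was not examined here. P2rx7, the ATP receptor that can trigger CD62L shedding and death in T cells, read 22.6 to 37.6 on the 6 arrays.

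Of 15 tested genes of cAMP signalling, the pathway below the A2A receptor, 3 rose and 1 fell. The phosphodiesterase gene Pde4d, whose product breaks down cAMP, read 164, 95.6 and 143 with TGF-b in Smad2KO, Smad3KO and WT, against 77.3, 62.8 and 66.5 without, and rose by 0.93 (SE 0.186, adjusted p = 0.00998). Adcy7, an adenylyl cyclase that makes cAMP, rose by 0.56 (SE 0.0853, adjusted p = 0.00226) and Pde4b by 0.47 (SE 0.128, adjusted p = 0.0425), while Prkar2a, a regulatory subunit of protein kinase A, fell by 0.40 (SE 0.0994, adjusted p = 0.0287). None of these 4 passed with all 8 arrays (adjusted p = 0.191, 0.152, 0.312 and 0.752 for Pde4d, Adcy7, Pde4b and Prkar2a), and Pde4b also failed with quantile normalization and with arrays centred on their medians. Pde4d, Pde4b and Prkar2a also failed without the Smad2KO pair (adjusted p = 0.121, 0.284 and 0.291) and without the WT pair (0.0638, 0.0946 and 0.118).

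**Figure D4:**
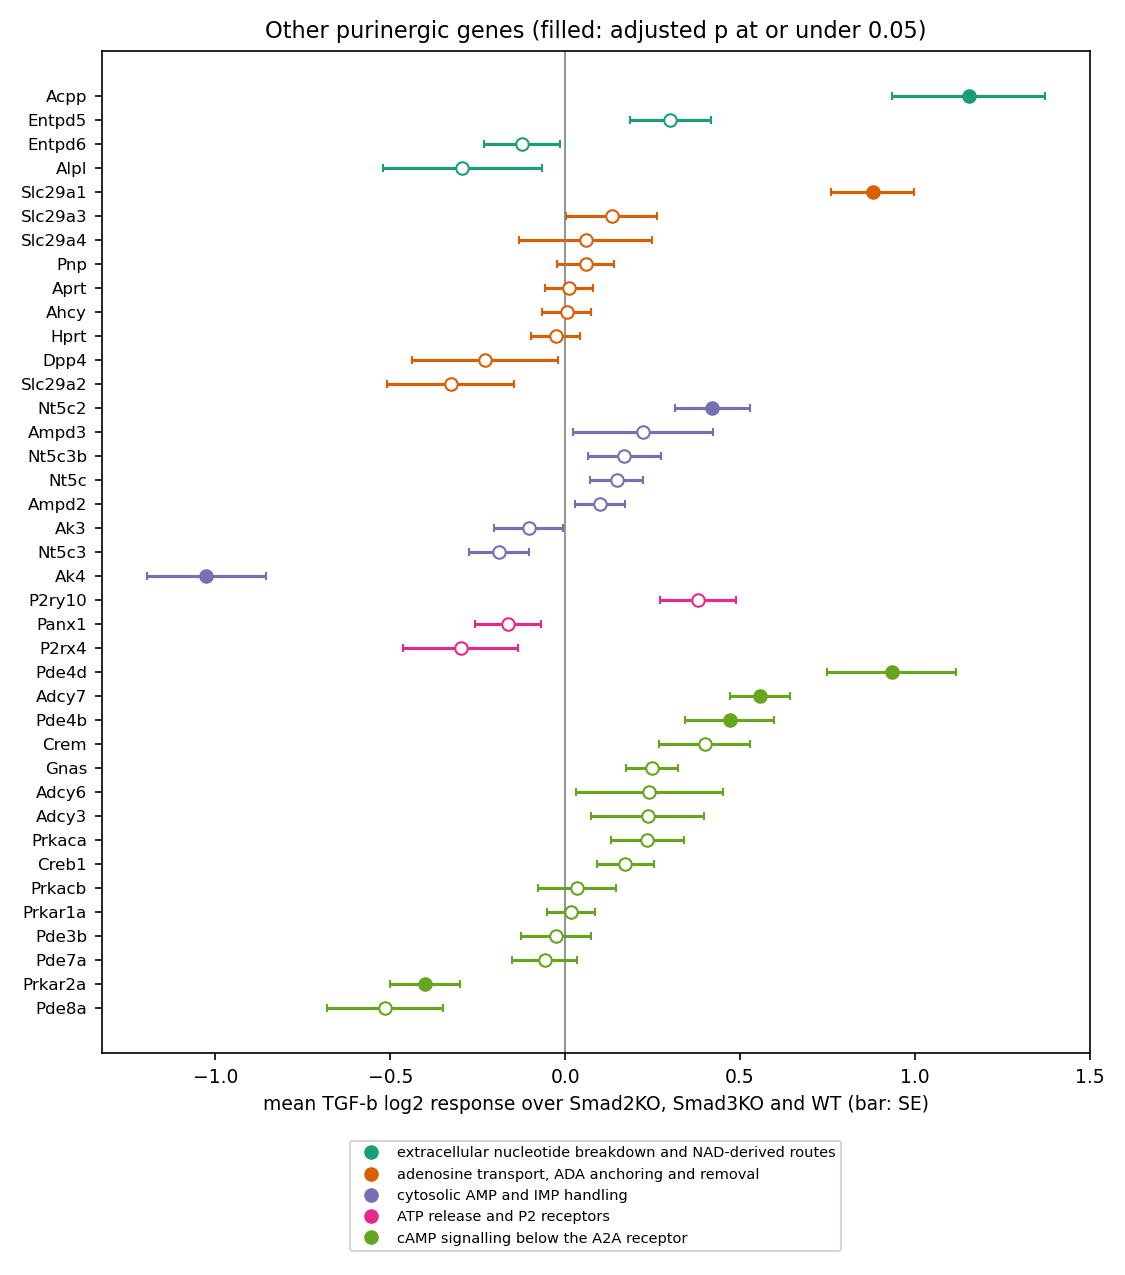
Mean TGF-b log2 response over Smad2KO, Smad3KO and WT for the 39 tested genes of the purine lists, with the SE from limma; colours are lists and filled symbols passed the adjusted threshold of 0.05. Acpp, Slc29a1 and Pde4d have the highest responses, 1.15, 0.88 and 0.93, and Ak4 the lowest, -1.03.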

How the data were processed

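Expression was measured in 8 cultures, 1 per genotype and treatment. The authors deposited 1 linear intensity per probe set and array. Per the submitters' processing notes GCOS 1.4 was used, with an algorithm and scaling not given in the sources used here. Deposited medians ran from 27.3 to 44.4, and every array was brought to 1 common 2% trimmed mean (216). Lower signals were set to a floor of 27.7, the median over the Smad2KO, Smad3KO and WT arrays, and log2 of the deposited values so treated was taken. Responses and level differences that include a signal under the floor use the floor in its place, and are not marked. Symbols came from the platform annotation: 34945 probe sets had 1 symbol, 932 had several, 9160 were unnamed and 64 were controls.

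Tests used limma 3.58.1 in R 4.3.3 on all tested probe sets, with moderated variances (trend and robust), Benjamini-Hochberg adjustment and a threshold of 0.05. The mean TGF-b response had genotype as a block, levels had treatment as a block (2 residual degrees of freedom each), and response differences were fitted on 3 responses. Scripts were tested on simulated data. The text names all member probe sets, the purine list genes that passed or are needed beside them, and the 5 genes nearest to Nt5e in profile. Members, lists and tests were chosen with earlier results of these data known. Alternatives were other normalizations, floors, filters and variance settings, 1 probe set per gene, no block, all 8 arrays and leaving out a genotype pair, and, chosen after seeing the data, unscaled intensities. Figures were drawn with matplotlib 3.10.9.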

Additional observations from a re-analysis of the deposited data

How the results depend on the processing

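The rise of Nt5e probe set 1428547_at passed under all 12 alternatives (log2 3.94 to 4.51, limma adjusted p from 1.17e-17 to 0.0214). That of 1422974_at, which entered the main test only through its arrays with TGF-b, passed under 10 of 11 (2.63 to 3.95), failing with all 8 arrays. Ada (0.32 to 0.45) passed under none of 12. The lower level of 1428547_at passed under 6 of 9 alternatives in Smad2KO (-1.56 to -1.51) and 6 of 9 in Smad3KO (-1.24 to -1.197). With a floor at the 25th percentile, 6.11, 1422974_at was also lower in Smad2KO (-1.19, adjusted p = 0.0157). Of the 8 list genes called, Acpp passed under 11 of 12 alternatives, Slc29a1, Ak4 and Adcy7 under 10 each, Pde4d under 7, Nt5c2 and Prkar2a under 6 each, and Pde4b under 3. No called value of a named gene changed direction under these alternatives.

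Counts over all probe sets moved more. The 1898 calls of the mean response were 515 with no filter, 403 without trend and robust settings, 1207 with 1 probe set per gene, 371 with all 8 arrays and 914 without the genotype block, and ran from 705 to 2608 when 1 genotype pair was left out. For Smad2KO against WT, 193 calls were 340 with the 25th percentile floor, 18 with no filter, 6 without trend and robust settings, 95 with 1 probe set per gene, 19 without the treatment block and 370 without the Smad3KO pair. For Smad3KO against WT, 75 calls were 245, 3, 2, 44 and 3 under the same 5 settings and 42 without the Smad2KO pair. The 0 calls for the Smad2KO response difference were 49 with 1 probe set per gene, none of them a member. With the 25th percentile floor, 2-fold counts were 6042, 5583, 13494 and 8275 in Smad2KO, Smad3KO, Smad2KO_Smad3het and WT, against 984, 536, 8857 and 1477. That floor also lowers the brightness cut, set at 2 times the floor, so dimmer probe sets enter these 2-fold counts. Why the other counts moved was not tested. The number of arrays and signals near the floor limit every value. No paired analysis by replicate number was possible because each group has 1 array.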
